A study of Mus musculus with 18 samples.

Results

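Satellite glial cells are the glia that wrap the cell bodies of sensory neurons in dorsal root ganglia (DRG), and 10 genes that mark them or their activation were followed across 18 DRG libraries. The genes were *Fabp7*, *Glul*, *Gja1*, *Apoe*, *Slc1a3*, *Gfap*, *Cdh19*, *Ednrb*, *S100b* and *Sox10*, chosen by symbol among the 36737 genes of the deposited table, and all 10 were found there once. RNA-seq was done on L3–L5 DRG of adult CD1 mice, an outbred strain, in 3 groups of 6 mice with 3 males and 3 females each. The groups were sham surgery, tibial fracture with vehicle (called fracture below), and tibial fracture with Protectin DX (fracture plus PDX), a lipid mediator made from an omega-3 fatty acid. The ganglia of both fracture groups were taken on day 3 after surgery. All mice were of the same strain with no genetic change named, and the sources used here do not give the day for the sham mice or the PDX dose for these mice.

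A sheath of satellite glia encloses each sensory neuron and controls the glutamate and potassium around it. Gap junctions join the glia of neighbouring neurons, and after nerve injury satellite glia are known to become more coupled and to raise glial fibrillary acidic protein. In bulk tissue these genes are not specific to satellite glia, since Schwann cells also express *Sox10*, *S100b* and *Cdh19*, and macrophages also express *Apoe*. Fewer cells of a type and less RNA per cell cannot be told apart in these libraries.

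Between 63235040 and 82824942 counts per library fell on genes. The neurons of the ganglion were well represented, with 14 sensory neuron markers summing to between 18169 and 22225 CPM (counts scaled to a common library size), and none of the 14 was at 0. The sham libraries differed from the others in several lists of genes from other cell types. The 14 sensory neuron markers summed to between 18169 and 19325 CPM in sham and between 20047 and 21569 CPM in fracture libraries, with no overlap. The 10 endothelial markers summed to between 190.8 and 228.9 CPM in sham and between 168.4 and 190.7 CPM in fracture libraries, with a very narrow gap. Their median log2 fold change for fracture against sham was only -0.05, and 8 of the 10 were not called in the test below. Mean levels fell from 37.37 to 22.42 CPM for *Cdh5* and from 42.85 to 26.14 CPM for *Flt1*, the called genes of this list. A list of 17 placental genes, drawn up after seeing the data, summed to between 247.8 and 800.0 CPM in sham libraries of both sexes, against 43.24 to 372.4 CPM in fracture and 39.86 to 195.3 CPM in fracture plus PDX libraries. The placental sums of sham and fracture libraries overlap. The differences in these lists lie mostly between the sham libraries and the rest, so they and the effect of fracture cannot be told apart.

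The 10 genes lie on 6 chromosomes of the mm10 build and are annotated as protein coding, some with further transcripts that are noncoding. *Fabp7* (ENSMUSG00000019874, chr10:57784881-57788450, plus strand), a fatty acid binding protein of immature and satellite glia, shares chromosome 10 with *Gja1* (ENSMUSG00000050953, chr10:56377330-56402513, plus strand), which encodes the gap junction protein connexin 43. *S100b* (ENSMUSG00000033208, chr10:76253853-76261159, plus strand), a calcium-binding protein of glia, is on the same chromosome. *Glul* (ENSMUSG00000026473, chr1:153899944-153909723, plus strand) encodes glutamine synthetase, and *Cdh19* (ENSMUSG00000047216, chr1:110888326-110977584, minus strand) encodes a cadherin of neural crest glia. *Slc1a3* (ENSMUSG00000005360, chr15:8634124-8710764, minus strand) encodes the glutamate transporter GLAST, and *Sox10* (ENSMUSG00000033006, chr15:79154908-79165240, minus strand) encodes the transcription factor that specifies peripheral glia. *Apoe* (ENSMUSG00000002985, chr7:19696109-19699188, minus strand) encodes a carrier of lipids, *Gfap* (ENSMUSG00000020932, chr11:102887336-102897200, minus strand) the intermediate filament raised in reactive glia, and *Ednrb* (ENSMUSG00000022122, chr14:103814625-103844402, minus strand) the endothelin receptor type B.

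The levels of the 10 genes covered a wide range when scaled by transcript length. FPKM, fragments scaled by transcript length and by the mapped fragments of the library, were used for levels between genes. In sham libraries *Apoe* had 1159 ± 99.4 FPKM (SD, n = 6) and ranked 23 among 32428 genes detected in that group. *S100b* followed with 308.2 ± 16.3 FPKM and did not overlap with *Apoe* in any group. *Glul* (90.7 ± 18.8 FPKM) and *Fabp7* (72.6 ± 20.3 FPKM) came next in sham libraries and overlapped with each other. *Sox10* (38.6 ± 2.23 FPKM), *Ednrb* (28.0 ± 3.99 FPKM) and *Cdh19* (23.7 ± 5.82 FPKM) formed the middle of the order, where *Ednrb* and *Cdh19* overlapped. *Gja1* (3.50 ± 0.531 FPKM), *Gfap* (2.11 ± 1.07 FPKM) and *Slc1a3* (1.69 ± 0.279 FPKM) were lowest, and each overlapped with its neighbour.

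Some neighbours in this order changed places between groups. *Fabp7* lay below *Glul* in sham libraries and slightly above it in fracture (89.8 ± 12.1 against 86.0 ± 4.25 FPKM) and fracture plus PDX libraries (94.6 ± 15.6 against 88.6 ± 11.02 FPKM), with overlap in all 3 groups. *Ednrb* lay below *Sox10* without overlap in sham libraries, where the highest *Ednrb* value was 31.7 FPKM and the lowest *Sox10* value 35.5 FPKM. In fracture libraries they stood at 35.4 ± 4.14 and 35.1 ± 2.82 FPKM, and in fracture plus PDX libraries at 35.4 ± 2.65 and 34.4 ± 1.62 FPKM, with overlap in both groups. *Gfap* lay above *Slc1a3* in sham libraries and below it in fracture (1.29 ± 0.458 against 1.76 ± 0.147 FPKM) and fracture plus PDX libraries (1.26 ± 0.2504 against 1.94 ± 0.276 FPKM), with overlap in all 3 groups.

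**Figure D1:**
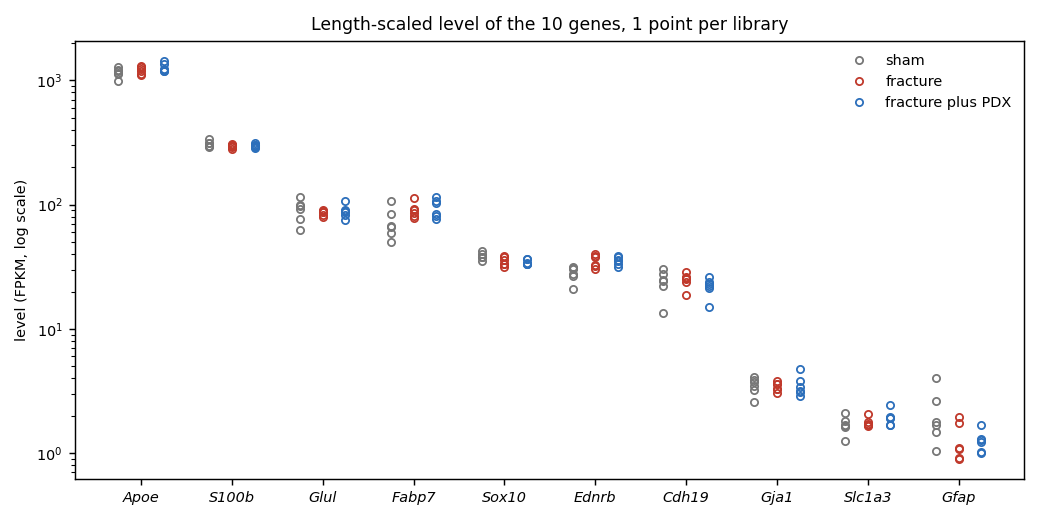
Level of each satellite glial cell gene in FPKM on a log axis, with 1 point per library and the genes ordered by their mean over 18 libraries (gray, sham; red, fracture; blue, fracture plus PDX). *Apoe* lies near 1159 FPKM in sham libraries and *Slc1a3* near 1.69 FPKM.

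Fracture and sham mice were compared to ask which of these genes differed on day 3 after tibial fracture. *Ednrb* was higher after fracture, by 0.35 ± 0.06 on the log2 scale (SE; 95% interval from 0.23 to 0.47), a 1.27-fold level. This was the only one of the 10 genes called by edgeR's quasi-likelihood test with sex as a covariate (adjusted *P* = 0.00978). All 10 passed the filter on low counts in each comparison. In that fit 603 of 20659 genes tested were called, which is 2.92%, with 225 higher and 378 lower, and 3817 had an unadjusted *P* under 0.05. DESeq2 called 1511 genes, and 1 of the 10. For the other 9 genes the log2 fold change lay between -0.68 (*Gfap*) and 0.33 (*Fabp7*), with adjusted *P* values from 0.211 (*Sox10*) to 0.960 (*Gja1*).

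In sham males *Ednrb* stood at 147.0, 143.3 and 150.5 CPM and in sham females at 97.2, 126.6 and 125.8 CPM. Fracture males had 180.6, 188.1 and 185.6 CPM, and fracture females had 142.3, 154.3 and 151.0 CPM. With PDX, males had 181.9, 173.6 and 151.2 CPM and females had 156.1, 169.6 and 175.1 CPM. Within each sex every fracture library lay above every sham library, and pooled over sexes 5 of 6 fracture libraries lay above all sham libraries. Exact permutation of the log2 CPM values (two-sided) gave *P* = 0.0152 for fracture against sham, where 0.00216 is the smallest value 6 against 6 mice can give. The difference was 0.33 in males and 0.37 in females, and each had an exact permutation *P* of 0.1, the smallest that 3 against 3 mice allow.

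*Ednrb* was called in all 12 fits that left out 1 library, with log2 fold changes from 0.29 to 0.37 and adjusted *P* values from 0.00399 to 0.0308. The call was lost without the sex covariate (log2 fold change 0.35, adjusted *P* = 0.114). It was also lost when a marker list of another cell type entered the model, as with the sensory neuron markers (0.34, adjusted *P* = 0.993), the skeletal muscle markers (0.33, adjusted *P* = 0.0692), the endothelial markers (0.27, adjusted *P* = 0.531) and the placental genes (0.33, adjusted *P* = 0.713). Over the whole table these fits called 0, 44, 0 and 1 of 20659 genes, against 603 without a list. The lost call is thus not particular to *Ednrb*. The covariate was the mean log2 CPM of a list, not the summed CPM. The neuron and endothelial sums do not overlap between sham and fracture libraries, and how far the covariates can be separated from the group was not tested. With the myelinating Schwann cell markers in the model *Ednrb* was still called.

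**Figure D2:**
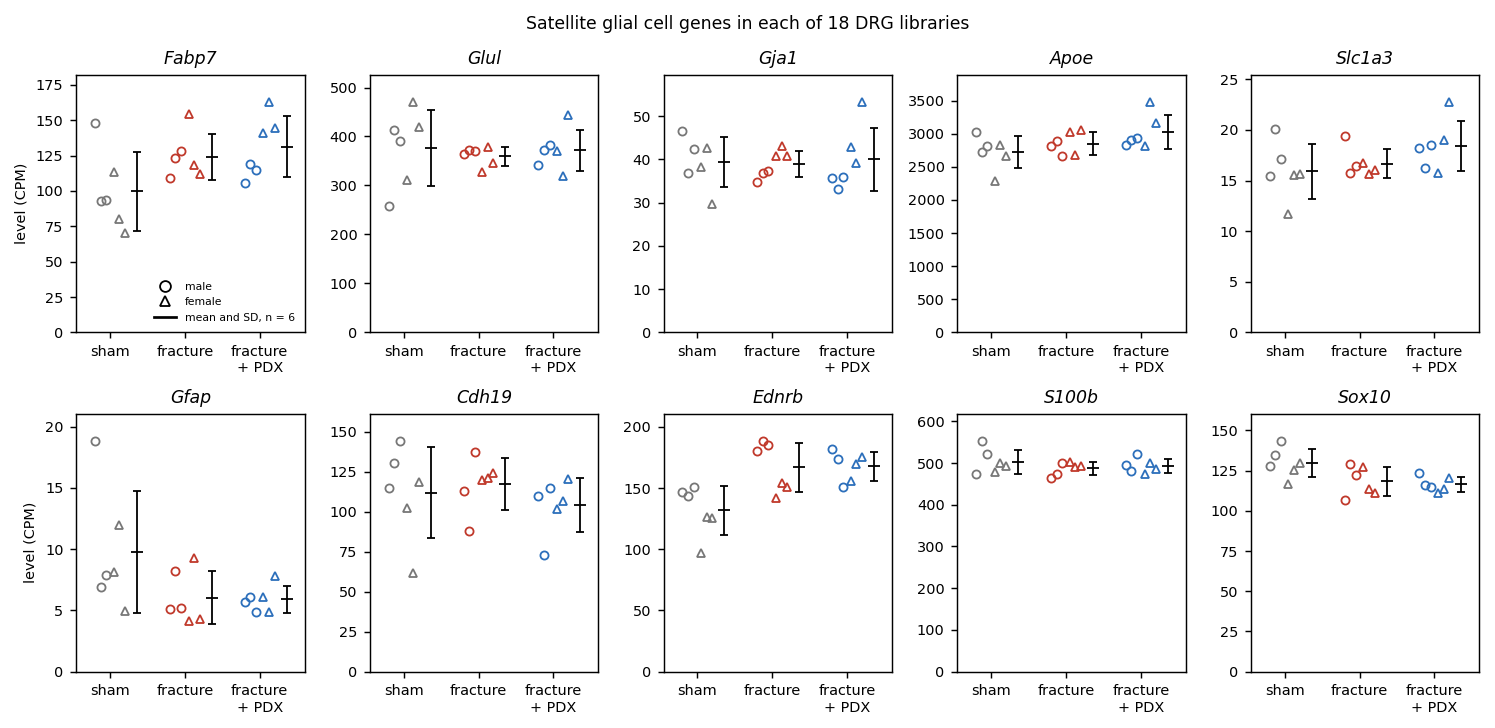
Level of each of the 10 genes in CPM (vertical axes, from 0) in sham, fracture and fracture plus PDX libraries (circles, males; triangles, females), with the mean and SD of 6 libraries as black bars. *Ednrb* lies at 131.7 ± 19.9 CPM in sham, 167.0 ± 20.03 CPM in fracture and 167.9 ± 11.9 CPM in fracture plus PDX libraries, while *Gfap* ranges from 4.96 to 18.8 CPM in sham libraries alone.

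*Ednrb* binds endothelins, and the other genes of that system in the list were 3 ligands, the receptor *Ednra* and the converting enzymes *Ece1* and *Ece2*. Of these 6 genes, 0 rose and 1 fell after fracture, with a median log2 fold change of 0.04 against 0.0021 over all genes tested. The gene that fell was *Edn3*, the ligand that acts through the type B receptor in neural crest cells (log2 fold change -0.62 ± 0.15, adjusted *P* = 0.0488 by edgeR). *Edn3* was low, with 3.90, 5.49 and 6.75 CPM as lowest, median and highest values in sham libraries and 3.00, 3.27 and 4.64 CPM in fracture libraries.

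*Gfap*, the usual marker of glial reactivity, was at a low level and was not higher after fracture. Its lowest, median and highest values were 4.96, 8.02 and 18.8 CPM in sham, 4.16, 5.17 and 9.24 CPM in fracture, and 4.83, 5.90 and 7.83 CPM in fracture plus PDX libraries. The highest value came from sham male 1, and the groups overlapped. The log2 fold change was -0.68 ± 0.33 for fracture against sham (95% interval from -1.41 to 0.06, adjusted *P* = 0.311 by edgeR). It ranged from -0.91 to -0.40 when each library was left out, with a call in 0 of 12 fits. *Gja1*, the gap junction gene, had 29.7, 40.4 and 46.5 CPM in sham and 34.9, 39.1 and 43.1 CPM in fracture libraries, a log2 fold change of -0.01 ± 0.09 (95% interval from -0.22 to 0.19).

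Wider lists around these genes were counted in the same fit. Of 20 glial reactivity genes 2 rose and 1 fell after fracture, with a median log2 fold change of -0.07. *Atf3*, a transcription factor that injured sensory neurons also induce, rose by 1.65 ± 0.25 (adjusted *P* = 0.0141), from 11.2 to 14.6 CPM in sham to 20.2 to 72.6 CPM in fracture libraries. *Cd44*, a hyaluronan receptor, rose by 0.24 ± 0.06 (adjusted *P* = 0.0481), and *Tgm2*, a transglutaminase, changed by -0.63 ± 0.08 (adjusted *P* = 0.00579). Of 6 intermediate filament genes of glia 0 were called. Of 11 other connexins, pannexins and junction genes 1 fell, the tight junction scaffold *Tjp1* (log2 fold change -0.26 ± 0.06, adjusted *P* = 0.0319).

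The genes of glutamate handling were not called after fracture. *Glul*, which turns glutamate into glutamine, had lowest, median and highest values of 258.8, 401.5 and 470.1 CPM in sham and 327.6, 366.4 and 378.5 CPM in fracture libraries. Sham male 1 was lowest, and the fracture libraries lay inside the sham range. Its log2 fold change was -0.06 ± 0.13 (95% interval from -0.35 to 0.22). *Slc1a3*, which takes up glutamate, had 11.7, 15.6 and 20.1 CPM in sham and 15.7, 16.2 and 19.4 CPM in fracture libraries, a log2 fold change of 0.08 ± 0.09 (95% interval from -0.12 to 0.28). With 1 library left out the *Slc1a3* value ran from 0.0085 to 0.14. Of 14 further genes of glutamate and potassium handling, 0 rose and 0 fell, with a median of 0.01.

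The lipid genes *Fabp7* and *Apoe* had positive fold changes that did not pass the test. *Fabp7* had 70.4, 93.2 and 148.0 CPM in sham and 109.2, 120.6 and 154.0 CPM in fracture libraries. All sham libraries but male 1 and female 1 lay below the lowest fracture library, and the log2 fold change was 0.33 ± 0.17 (95% interval from -0.05 to 0.71, adjusted *P* = 0.348 by edgeR). *Apoe* had 2291, 2775 and 3027 CPM in sham and 2661, 2848 and 3057 CPM in fracture libraries, a log2 fold change of 0.07 ± 0.06 (from 0.019 to 0.097 with 1 library left out). Of 16 other genes of lipid binding and transport 1 rose and 1 fell. *Clu*, which like *Apoe* encodes an apolipoprotein, rose by 0.17 ± 0.02 (adjusted *P* = 0.00708), and *Npc2*, which carries cholesterol in lysosomes, changed by -0.23 ± 0.05 (adjusted *P* = 0.0290).

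The identity genes *Sox10* and *S100b* varied least of the 10 among sham libraries. *Sox10* had 116.9, 128.7 and 143.1 CPM in sham and 106.7, 118.0 and 129.0 CPM in fracture libraries. Its log2 fold change was -0.13 ± 0.05, which did not pass the test across all genes (adjusted *P* = 0.211 by edgeR), while the exact permutation test gave an unadjusted *P* of 0.0498. *S100b* had 474.0, 496.7 and 551.7 CPM in sham and 463.8, 491.1 and 503.4 CPM in fracture libraries, and its 95% interval ran from -0.12 to 0.04. *Cdh19* had 61.6, 116.8 and 143.9 CPM in sham and 88.2, 120.3 and 137.3 CPM in fracture libraries, with sham female 2 lowest and a 95% interval from -0.32 to 0.49.

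Among 19 other transcription factors of glia 0 rose and 1 fell, *Sox8*, the relative of *Sox10* (log2 fold change -0.54 ± 0.12, adjusted *P* = 0.0330 by edgeR). Among 18 further satellite glia genes 1 rose and 0 fell, with a median of 0.03. It was *Ttyh1*, a chloride channel family gene of glia, with 107.7 to 134.3 CPM in sham and 139.4 to 172.4 CPM in fracture libraries, which do not overlap (log2 fold change 0.29 ± 0.06, adjusted *P* = 0.0237 by edgeR). Among 12 cadherin and adhesion genes 3 rose, *Nlgn3* (0.16), *Ncam1* (0.16) and *L1cam* (0.13), which neurons also express. The other 8 genes of the S100 family held 0 calls.

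Markers of other cells that hold some of the same transcripts were counted in the same fit. Of 12 myelinating Schwann cell markers 0 were called, with a median log2 fold change of -0.19. Of 11 markers of nonmyelinating and repair Schwann cells 3 rose. Among these, *Ncam1* and *L1cam* were already counted above as adhesion genes that neurons also express. Only *Ngfr*, the neurotrophin receptor p75, was a further call (0.14 ± 0.03). Of 14 sensory neuron markers 6 rose, with *Nefh* highest at 0.22 ± 0.04. Of 12 macrophage markers 2 fell, *Adgre1* (-0.56 ± 0.10) and *Csf1r* (-0.47 ± 0.07), and of 10 endothelial markers 2 fell, *Cdh5* (-0.73 ± 0.12) and *Flt1* (-0.71 ± 0.13). Of 12 fibroblast and mural markers 1 fell, *Dcn* (-0.33 ± 0.07), and of 17 placental genes 4 fell, led by *Prl3d1* (-2.17 ± 0.48). Neutrophil, red blood cell, skeletal muscle and central glia markers held 0 calls, with median log2 fold changes of -0.81, -0.53, 2.03 and -0.12. The muscle markers summed to between 38.58 and 687.2 CPM in sham and between 63.75 and 1393 CPM in fracture libraries, which overlap. The part of these cells in the levels of the satellite glia genes was not tested beyond the covariates above.

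**Figure D3:**
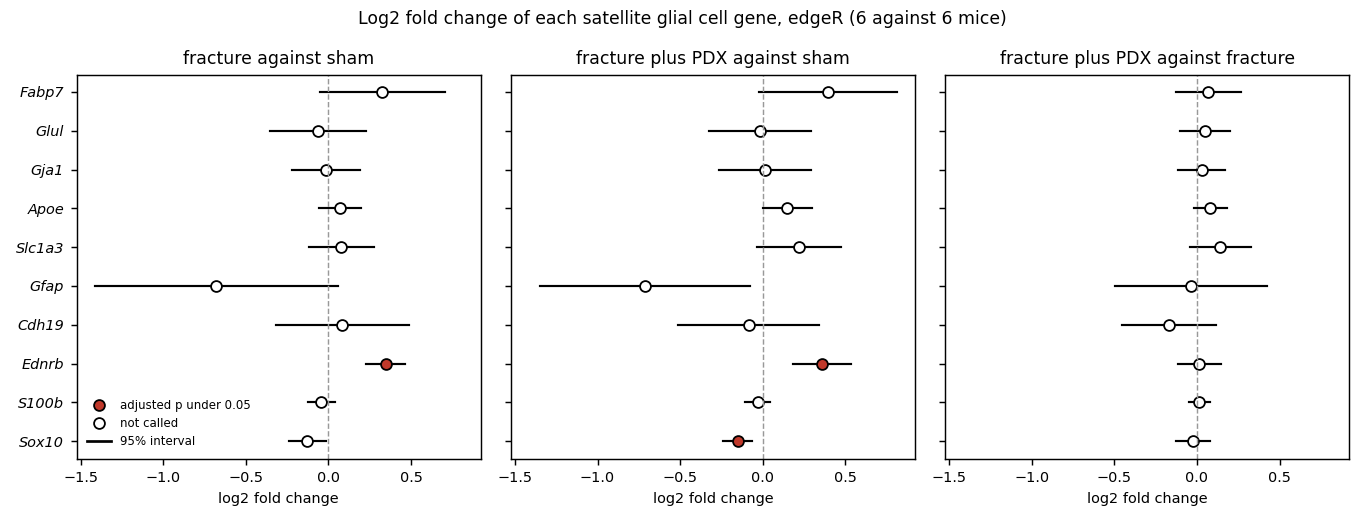
Log2 fold change of each of the 10 genes (horizontal axis) with its 95% interval in 3 comparisons of 6 against 6 mice, from edgeR with sex as a covariate (red, adjusted *P* under 0.05; white, not called). *Ednrb* is red at 0.35 and 0.36 in the comparisons with sham, *Sox10* is red at -0.15 for fracture plus PDX against sham, and no gene is red for fracture plus PDX against fracture.

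PDX was compared with vehicle in fracture mice to ask whether treatment changed these genes. None of the 10 was called by edgeR, and adjusted *P* values ran from 0.917 (*Apoe* and *Slc1a3*) to 0.998 (*Gfap* and *Ednrb*). In this fit 0 of 20562 genes were called (0%), while 1113 genes had an unadjusted *P* under 0.05 and DESeq2 called 15, none of them among the 10. The sizes of change that the data allow were narrow for most genes. The 95% intervals of the log2 fold change ran from -0.05 to 0.08 for *S100b*, from -0.13 to 0.08 for *Sox10*, from -0.11 to 0.14 for *Ednrb*, and from -0.02 to 0.18 for *Apoe*. They were -0.11 to 0.17 for *Gja1*, -0.10 to 0.20 for *Glul*, -0.13 to 0.26 for *Fabp7* and -0.04 to 0.33 for *Slc1a3*. They were widest for *Cdh19*, from -0.45 to 0.11, and *Gfap*, from -0.49 to 0.42.

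The largest difference between the fracture groups in the main fit was in *Cdh19*, at -0.17 ± 0.13 on the log2 scale, with 72.7, 108.1 and 120.7 CPM as lowest, median and highest values after PDX. With 1 library left out the *Cdh19* value ran from -0.23 to -0.087. *Slc1a3* was at 0.14 ± 0.09, with 15.8, 18.4 and 22.7 CPM after PDX, and 1 PDX library lay above all fracture libraries. *Apoe* had 2810, 2922 and 3476 CPM after PDX, with PDX females 2 and 3 above all fracture libraries. All 10 genes overlapped between these groups, with exact permutation *P* values of 0.175 (*Slc1a3*) or more. The share of all genes that overlap was not counted, so this is not read as a trait of the 10. Of the gene lists described for fracture against sham, 0 members were called in this comparison. The 12 skeletal muscle markers had a median log2 fold change of -1.82, with sums from 63.75 to 1393 CPM in fracture and from 20.14 to 639.0 CPM in PDX libraries. The 10 neutrophil markers had a median of 1.11, with sums from 86.33 to 182.8 CPM in fracture and from 77.29 to 456.3 CPM in PDX libraries. The 12 macrophage markers had a median of 0.27, with sums from 161.1 to 211.9 CPM in fracture and from 207.2 to 256.9 CPM in PDX libraries. All 3 lists overlapped between the groups. The part of macrophages in the *Apoe* level was not tested. With the muscle markers as a covariate the log2 fold change was -0.0051 for *Cdh19*, 0.27 for *Slc1a3*, 0.14 for *Gja1* and 0.14 for *Glul*, none of them called (adjusted *P* from 0.998 to 0.999 by edgeR).

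Fracture plus PDX was also compared with sham, using the same sham libraries as above. *Ednrb* rose by 0.36 ± 0.08 on the log2 scale (adjusted *P* = 0.0274) and *Sox10* fell by 0.15 ± 0.04 (adjusted *P* = 0.0483), and the other 8 genes were not called. This is 2 of the 10 genes, where edgeR called 925 of 20574 genes (4.5%), 447 higher and 478 lower, and 3695 had an unadjusted *P* under 0.05. DESeq2 also called 2 of the 10 among its 1620 genes. All 6 PDX libraries lay above all sham libraries for *Ednrb*, with an exact permutation *P* of 0.00216, the smallest possible. For *Sox10* the PDX libraries had 111.3, 115.1 and 123.5 CPM as lowest, median and highest values, 4 of 6 lay below all sham libraries, and the exact permutation *P* was 0.00866.

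Both calls lay near the threshold. *Ednrb* was called in 6 of 12 fits that left out 1 library, and lost without sham male 2, sham female 2, PDX male 1, PDX male 2, PDX female 1 or PDX female 2, each left out alone, with adjusted *P* values from 0.0511 to 0.0615 there. Its log2 fold change over the 12 fits ran from 0.29 to 0.41. *Sox10* was called in 3 of 12 such fits, with log2 fold changes from -0.17 to -0.13 and adjusted *P* up to 0.118. It kept its call without sham male 1, sham female 1 or PDX female 3. *Ednrb* was not called without the sex covariate (0.35, adjusted *P* = 0.0548) or with no filter on low counts (0.36, adjusted *P* = 0.0541). *Sox10* was not called without the sex covariate (adjusted *P* = 0.0730) or with mice of the same number as a block (adjusted *P* = 0.0942).

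*Fabp7* and *Gfap* differed most from sham among the genes that were not called. *Fabp7* had 105.9, 130.2 and 162.7 CPM after PDX and a log2 fold change of 0.40 ± 0.19 against sham (95% interval from -0.02 to 0.81, adjusted *P* = 0.307 by edgeR). The exact permutation test gave an unadjusted *P* of 0.0476 on log2 CPM and 0.0606 on FPKM. Without sham male 1, which had the highest *Fabp7* of its group at 148.0 CPM, the log2 fold change was 0.55 and the adjusted *P* 0.0488. *Gfap* had a log2 fold change of -0.71 ± 0.29 (adjusted *P* = 0.220 by edgeR), which ran from -0.864 to -0.415 with 1 library left out. *Apoe* and *Slc1a3* stood at 0.15 ± 0.07 and 0.22 ± 0.12.

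Among the lists in this comparison, 2 of 18 further satellite glia genes rose. *Ttyh1* rose by 0.29 ± 0.06 (adjusted *P* = 0.0113), and *Kcnj10*, the potassium channel Kir4.1 with which satellite glia buffer potassium, rose by 0.27 ± 0.07 (adjusted *P* = 0.0493). *Kcnj10* had 79.5, 93.7 and 96.0 CPM in sham and 97.2, 106.4 and 130.1 CPM after PDX, with no overlap. Of 11 connexins, pannexins and junction genes 2 fell, *Gjb2* (connexin 26, -1.15 ± 0.16) and *Tjp1* (-0.24 ± 0.06). Of 16 lipid genes 2 rose and 1 fell, with *Abca1*, the exporter that loads cholesterol onto apolipoprotein E, at 0.34 ± 0.09 (adjusted *P* = 0.0448). Of 6 filament genes 2 rose, *Plec* (0.20 ± 0.04) and *Synm* (0.13 ± 0.03), and of 20 glial reactivity genes 5 rose and 1 fell, with *Atf3* highest at 2.21 ± 0.26. *Sox8* fell by 0.65 ± 0.10, and *S100a10* was the 1 of 8 S100 genes that rose (0.18 ± 0.04). Of the 6 endothelin genes 0 were called. Of 17 placental genes 14 fell in this comparison, with a median of -2.23, and of 14 sensory neuron markers 4 rose. With the sensory neuron markers as a covariate *Ednrb* had a log2 fold change of 0.65 (adjusted *P* = 0.266) and *Sox10* one of -0.04 (adjusted *P* = 0.989). With the placental genes *Ednrb* was at 0.38 and *Sox10* at -0.16 (adjusted *P* = 0.941 for both), and with the endothelial markers they were at 0.49 (adjusted *P* = 0.387) and -0.12 (adjusted *P* = 0.713). Over the whole table the fits with the neuron, placental and endothelial lists called 9, 0 and 0 of 20574 genes, against 925 without a list. *Ednrb* was called with the Schwann cell markers (0.42, adjusted *P* = 0.00796) and the skeletal muscle markers (0.36, adjusted *P* = 0.0451), where *Sox10* was not (-0.12 and -0.15, adjusted *P* = 0.0839 and 0.0728).

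The sexes were compared across all 18 libraries with group as a covariate. None of the 10 genes was called by edgeR, which called 61 of 20527 genes (0.297%). *Ednrb* had the smallest *P* of the 10, with a log2 fold change of -0.22 ± 0.06 for females against males (adjusted *P* = 0.124, unadjusted *P* = 0.00136), and DESeq2 called it. All 3 males lay above all 3 females in sham (143.3 to 150.5 against 97.2 to 126.6 CPM) and in fracture libraries (180.6 to 188.1 against 142.3 to 154.3 CPM). With PDX the sexes overlapped, at 151.2 to 181.9 CPM in males and 156.1 to 175.1 CPM in females.

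Whether the sexes differed in their response was tested by interaction terms. For fracture against sham 0 of 20659 genes were called (0%, with 1488 at an unadjusted *P* under 0.05 and 65 by DESeq2), and for PDX against fracture 1 of 20562 (0.00486%). None of the 10 genes was called in either. The interaction of *Ednrb* was 0.02 ± 0.11 for fracture and 0.29 ± 0.09 for PDX, the latter with an unadjusted *P* of 0.00644 and an adjusted *P* of 0.998 by edgeR. PDX and fracture libraries differed by -0.13 in males and 0.16 in females on the log2 scale for this gene. *Gja1* had an interaction of 0.37 ± 0.16 for fracture (unadjusted *P* = 0.0378, adjusted *P* = 0.653). Its level was 41.9 ± 4.79 CPM in sham males and 36.4 ± 1.35 CPM in fracture males, and 36.9 ± 6.58 CPM in sham females and 41.5 ± 1.37 CPM in fracture females (n = 3 each).

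The 10 genes varied between mice to different degrees. The coefficient of variation of CPM had a median over the 10 genes of 16.2% in sham libraries, 8.16% in fracture libraries and 12.4% in PDX libraries, beside 12.9%, 11.7% and 12.2% over 21340 genes. In sham libraries it ran from 5.78% for *S100b* to 50.9% for *Gfap*. Sham male 1 held the highest *Gfap* (18.8 CPM), *Fabp7* (148.0 CPM) and *Apoe* (3027 CPM) and the lowest *Glul* (258.8 CPM) of its group. Sham female 1 held the lowest *Ednrb* (97.2 CPM), *Slc1a3* (11.7 CPM) and *Apoe* (2291 CPM).

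The genes did not move together from mouse to mouse as 1 block. Pearson's r of log2 CPM, after removing the mean of each group and sex, had a median of 0.01 over the 45 pairs, with 27 pairs above 0 and 18 below. It was lowest for *Fabp7* and *Glul* (r = -0.79, permutation *P* = 0.0262, adjusted *P* = 0.392) and highest for *Gja1* and *Gfap* (r = 0.74, permutation *P* = 0.00294, adjusted *P* = 0.132). *P* values came from two-sided permutation of libraries within group and sex and were adjusted over 45 pairs, of which 0 passed and 3 had an unadjusted *P* under 0.05. Spearman's rho was -0.65 for *Fabp7* and *Glul* (permutation *P* = 0.0465, adjusted *P* = 0.444) and 0.70 for *Gja1* and *Gfap* (permutation *P* = 0.00609, adjusted *P* = 0.274). Without the 2 libraries farthest out r was -0.54 and 0.70. *Gfap* and *Cdh19* were the other pair, at r = -0.55 (permutation *P* = 0.0194, adjusted *P* = 0.392).

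**Figure D4:**
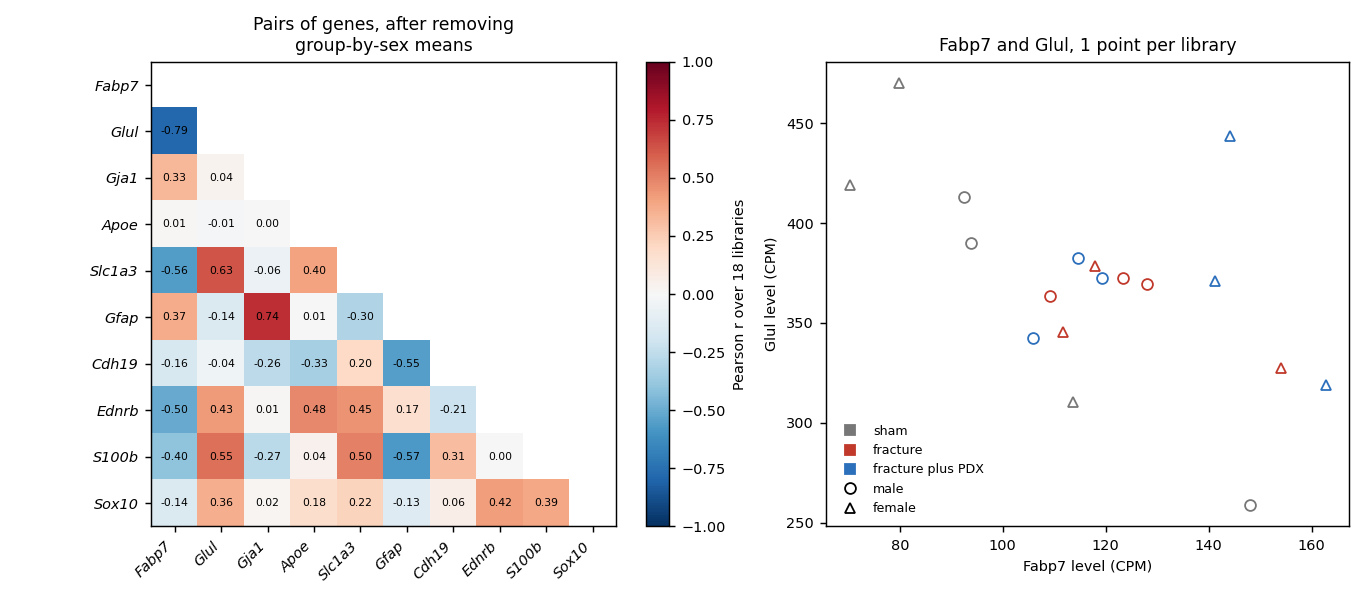
Left, Pearson's r of log2 CPM over 18 libraries for each pair of the 10 genes after removing group-by-sex means (red, positive; blue, negative), from -0.79 for *Fabp7* and *Glul* to 0.74 for *Gja1* and *Gfap*. Right, *Glul* against *Fabp7* level in CPM with 1 point per library (colors, groups; circles, males; triangles, females), where sham male 1 is at 148.0 and 258.8 CPM.

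For each gene the most similar of 21339 others was sought with the same deviations over 18 libraries, as a description. The nearest was *Naca* for *Fabp7* (r = 0.95), *Aff1* for *Glul* (r = 0.96), *Uqcr10* for *Apoe* (r = 0.88) and *Sult5a1* for *Slc1a3* (r = 0.88). It was *Negr1* for *Gfap* (r = 0.84), *Bcl2l2* for *Cdh19* (r = 0.85) and *Zdhhc4* for *Ednrb* (r = 0.89). For *Gja1*, *S100b* and *Sox10* it was *Otof*, *Gm11413* and *Gm44968*, with means of 0.188, 0.206 and 0.142 CPM. None of the nearest genes was another of the 10. The 10 are few among the 21339 compared, so this does not show whether they move together.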

How the data were processed

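L3–L5 DRG of 18 mice gave poly(A)-selected, strand-specific libraries. The authors deposited read counts per gene without normalization and FPKM values scaled by transcript length and mapped fragments. Per the labels, cutadapt 1.10, FastQC, HISAT2 and StringTie were used with mm10. Columns named Con were read as sham, and 0 columns belonged to other samples. The 10 genes and the gene lists were chosen with earlier results of these data known.

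The count model was edgeR 4.0.16 in R 4.3.3 (filterByExpr with a minimum count of 10, TMM, robust quasi-likelihood fits) on the 12 libraries of each comparison, or 18 for the sexes, with sex or group as a covariate. Benjamini-Hochberg adjustment ran over the whole set of tested genes, and a call was an adjusted *P* under 0.05. Standard errors are the fold change divided by the root of F. log2 CPM used a prior count of 2. The labels number the mice but do not describe pairs, so *P* values measure the spread between these mice.

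Named genes are the 10, in each list and comparison up to 4 called genes with the largest fold change, and for each of the 10 the most similar gene. Alternatives were DESeq2 1.42.0, other size factors and filters, limma 3.58.1 on log2(FPKM + 1) and log2(FPKM + 0.1), no sex covariate, a replicate block, all 18 libraries in one fit, marker lists as covariates and leaving out each library. The endothelial and placental covariates were chosen after seeing the data.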

Additional observations from a re-analysis of the deposited data

Results flagged for a closer look

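*Slc1a3* in fracture male 1 lay far above the other 5 fracture libraries, at 19.4 CPM, with a gap to the nearest library of 0.717 of the range of the group. It was the only such value in 30 groups of 6 libraries (10 genes in 3 groups), and the limit of Dixon's test used to pick it is passed by chance in about 1 of 20 groups.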

How the results depend on the processing

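The call of *Ednrb* for fracture against sham (1 of the 10 genes) was the firmer one, and with 1 library left out 1 of the 10 genes was called in each of 12 fits. The number called was 0 without the sex covariate and with the sensory neuron, skeletal muscle, endothelial or placental lists as covariates. For fracture plus PDX against sham the number moved from 2 to 1 with no filter on low counts, where *Ednrb* lost its call, and with the replicate block, all 18 libraries in one fit, or the Schwann cell or muscle lists, where *Sox10* lost its call. It moved to 0 without the sex covariate or with the neuron, endothelial or placental lists, and ran from 0 to 3 with 1 library left out. For females against males it moved from 0 to 1 with DESeq2 and ran from 0 to 1 with 1 library left out (*Ednrb* without PDX male 3). The exact permutation test of FPKM without a logarithm gave 1 of the 10 genes at *P* under 0.05 for fracture against sham in place of 2, and 2 in place of 3 for fracture plus PDX against sham. By edgeR 3817 of 20659 and 3695 of 20574 genes had an unadjusted *P* under 0.05 in these comparisons, so such counts are not read as a result about the 10 genes. The cause of these changes was not tested. The counts for PDX against fracture and for both interactions stayed at 0.

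Mice of the same number showed little common deviation, with correlations from -0.07 to 0.13 of which 1 of 18 was over 0.1. With 3 mice per group and sex this cannot exclude pairs or a batch by number. The replicate block lowered the genes called from 603 to 118 for fracture against sham and from 925 to 486 for fracture plus PDX against sham, where the only call among the 10 genes that it ended was that of *Sox10* (log2 fold change -0.15, adjusted *P* = 0.0942). Under the block *Ednrb* stood at 0.35 (adjusted *P* = 0.0157) and 0.36 (adjusted *P* = 0.0483).

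Reversals of direction occurred only where a gene was not called in the comparison. For fracture against sham they were, with neuron markers, *Glul* 0.054, *Gja1* 0.15, *Cdh19* -0.33, *S100b* 0.038 and *Sox10* 0.029, with placental genes *Gja1* 0.15 and *Cdh19* -0.10, and for *Gja1* 0.0099 with muscle and 0.18 with endothelial markers. For PDX against fracture *Gfap* was at 0.0080 by limma on log2(FPKM + 0.1), 0.016 with the block and 0.15 with muscle markers. For fracture plus PDX against sham *Glul* was at 0.0027 with the block, 0.092 with Schwann cell, 0.29 with neuron and 0.0096 with muscle markers, *Gfap* at 0.12 with neuron markers, and *Cdh19* at 0.074 with endothelial markers. With 1 library left out, the fold changes for fracture against sham ran from -0.097 to 0.039 for *Gja1*, -0.16 to 0.0064 for *Glul* and -0.052 to 0.18 for *Cdh19*. For PDX against fracture they ran from -0.14 to 0.16 for *Gfap*, -0.057 to 0.0042 for *Sox10*, -0.017 to 0.065 for *Ednrb*, -0.0042 to 0.028 for *S100b*, -0.017 to 0.090 for *Glul* and -0.041 to 0.061 for *Gja1*. For fracture plus PDX against sham they ran from -0.10 to 0.051 for *Glul*, -0.075 to 0.080 for *Gja1* and -0.22 to 0.031 for *Cdh19*.

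The number of genes called over the whole table moved by more than 1.5 times in some fits. For fracture against sham it was 1511 with DESeq2 and 0, 44, 0 and 1 with the neuron, muscle, endothelial and placental covariates. For fracture plus PDX against sham it was 1620 with DESeq2 and 9, 0 and 0 with the neuron, endothelial and placental covariates. For females against males it was 330 with DESeq2, and 25 and 32 with the neuron and muscle covariates. DESeq2 called 8 genes for the interaction of sex and PDX. With 1 library left out the number was as low as 213 for fracture against sham (without fracture female 2) and 498 for fracture plus PDX against sham (without PDX female 1), and ran from 25 (without fracture female 3) to 79 (without fracture female 2) for females against males. The genes of the 10 with the fewest counts were *Gfap* (304 to 1311 per library) and *Slc1a3* (918 to 1604).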
